A study of Mus musculus with 4 samples.

Results

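The B cell receptor signalling genes examined here are Cd79a, Cd79b, Cd22, Cr2, Syk, Lyn, Blnk, Plcg2 and Pik3cd, which are 9 of the 22380 protein-coding genes in the mouse GENCODE M1 annotation of build mm9 (NCBIM37). They were taken as a named list, and for each gene the overlap of RIF1-bound intervals with the gene, with its transcript 5′ ends and with the surrounding 200 kb was measured. Syk carries the older symbol Sykb in this annotation and was matched through the RefSeq synonym. RIF1 occupancy was measured by chromatin immunoprecipitation and sequencing (ChIP-seq) in splenic B cells of Rif1FH/FH mice (group Rif1FH, 2 samples), whose RIF1 carries FLAG and HA tags at the N terminus, and of C57BL/6 (Rif1WT/WT) mice (group Rif1WT, 2 samples), whose RIF1 is untagged. Cells of both groups were purified with anti-CD43 beads, activated with 5 µg/ml LPS and 5 ng/ml IL-4, and collected 72 h later, and chromatin was precipitated with an anti-HA antibody. The antibody label of all samples names the CD43 beads instead. The study kept the tagged and the untagged mice on a C57BL/6 background. The labels give no age of the mice.

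The analysed list holds intervals that the authors retained from both Rif1FH replicates, as positions with no height, score or p-value. It has no value per sample, so depth is unknown, no spread between replicates can be given, and Rif1WT enters no value. The list contains 16043 narrow intervals, called peaks below, of at most 14.8 kb, and 289 wide intervals of at least 90.0 kb, which are taken to be RIF1-associated domains (RADs). As the study defined peaks to lie outside RADs, a gene wholly inside a wide interval cannot carry a listed peak. The list holds no expression values against which the B cell identity of the samples could be checked.

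The B cell receptor is a membrane antibody that signals through the CD79A and CD79B chains. Antigen binding lets the Src-family kinase LYN phosphorylate these chains, SYK docks on them, and the adaptor BLNK then assembles SYK, BTK and the phospholipase PLCG2, which releases calcium. The lipid kinase PI3K delta, whose catalytic subunit is encoded by Pik3cd, recruits further enzymes to the membrane. CR2 (CD21), a complement receptor, lowers the threshold of activation, and CD22 dampens the signal by recruiting a phosphatase. RIF1 sets the time at which chromosome domains replicate and protects DNA ends at class switch breaks in B cells, and the protein can bind G-quadruplex DNA, a fold formed by runs of guanines.

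The 9 genes fell into 2 groups without remainder. Cd79b, Cr2, Lyn, Blnk and Plcg2 each had a RIF1 peak at a 5′ end, whereas Cd79a, Cd22, Syk and Pik3cd lay wholly inside a wide interval and had no peak. A peak was counted at a 5′ end if it came within 1 kb of where any transcript of the gene begins, with an overlap of at least 1 bp. By this count 5 of 9 members had such a peak, against 33.9% of the 22367 coding genes on chromosomes with intervals. The same 5 members had a peak over the gene, against 35.9% of coding genes. A wide interval covered 4 of 9 members, against 22.6% of coding genes. None of the 9 had neither form, whereas 40.5% of coding genes had neither a peak in the gene or at a 5′ end nor a wide interval. Outside wide intervals, all 5 members had a peak at a 5′ end, against 43.4% of coding genes there. These counts were not tested, since the genes were chosen with earlier results known and 9 genes are few. Members were also longer than most genes, with a median length of 53.4 kb against 15.4 kb over coding genes, and longer genes can meet more intervals. The part of gene length in these counts was not tested.

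**Figure D1:**
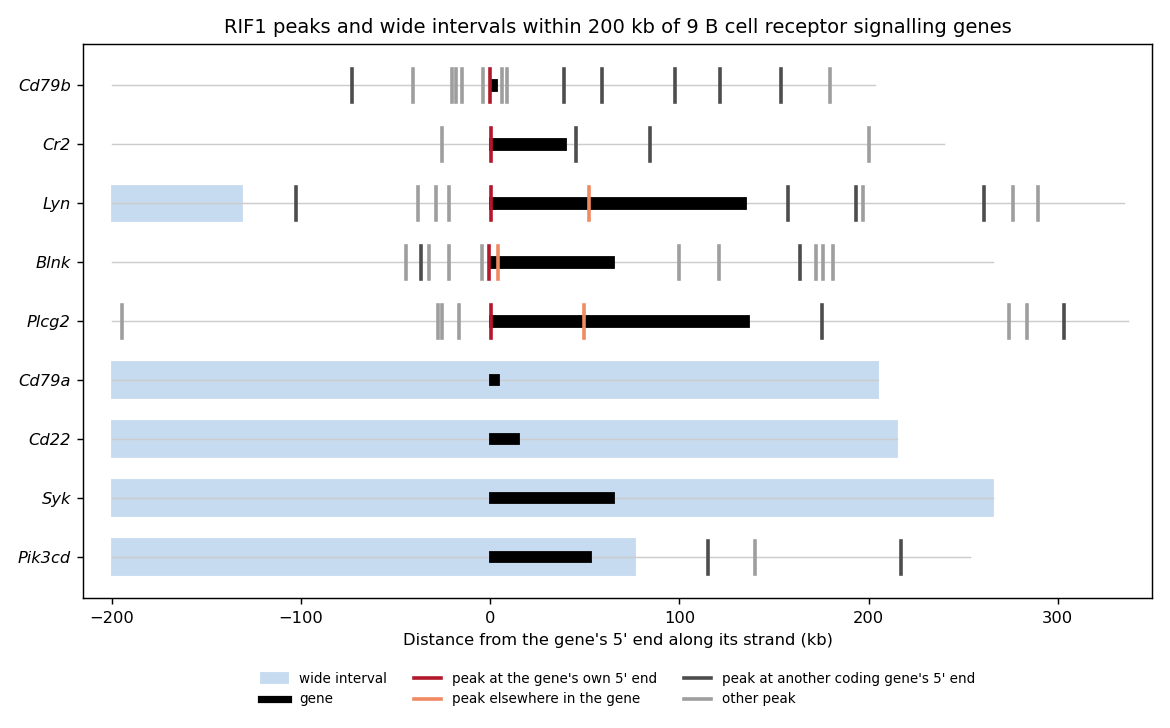
Positions of RIF1 peaks (vertical ticks at peak midpoints) and wide intervals (blue) around the 9 genes (black bars), plotted by distance from each gene's 5′ end along its strand in kb and ending 200 kb beyond each gene. Cd79b, Cr2, Lyn, Blnk and Plcg2 have a peak at their own 5′ end (red), whereas the blue interval spans Cd79a, Cd22, Syk and Pik3cd.

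The DNA at these start sites differed in base composition. Promoter windows of RefSeq, which run from 250 bases before to 50 after a start site, were held for 7 of the 9 genes (10 windows) and all 10 matched build NCBIM37 exactly at a single place. Windows of Cd79b and Lyn were not used here. Stretches before a start site and outside annotated exons of coding genes are shown 5′ to 3′ on the gene's strand, with CpG dinucleotides in capitals, so that start sites under a peak can be set beside those in wide intervals. The stretches of Cr2 (chr1:197002914-197003163, minus strand) and Plcg2 (chr8:120021925-120022174, plus strand) lay under peaks over 250 and 224 bases. Those of Pik3cd (chr4:149072818-149073067, minus strand), Cd22 (chr7:31664048-31664213, minus strand) and Cd79a (chr7:25682266-25682399, plus strand) lay in wide intervals.
Cr2: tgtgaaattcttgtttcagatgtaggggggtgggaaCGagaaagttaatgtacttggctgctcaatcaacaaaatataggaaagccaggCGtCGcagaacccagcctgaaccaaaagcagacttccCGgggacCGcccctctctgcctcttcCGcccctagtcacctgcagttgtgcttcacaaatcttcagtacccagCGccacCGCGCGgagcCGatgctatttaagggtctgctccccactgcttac
Plcg2: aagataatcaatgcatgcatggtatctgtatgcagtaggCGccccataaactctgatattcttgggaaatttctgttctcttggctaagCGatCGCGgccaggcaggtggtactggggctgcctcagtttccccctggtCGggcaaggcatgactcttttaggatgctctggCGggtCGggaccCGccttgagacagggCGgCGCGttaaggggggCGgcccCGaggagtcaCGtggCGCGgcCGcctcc
Pik3cd: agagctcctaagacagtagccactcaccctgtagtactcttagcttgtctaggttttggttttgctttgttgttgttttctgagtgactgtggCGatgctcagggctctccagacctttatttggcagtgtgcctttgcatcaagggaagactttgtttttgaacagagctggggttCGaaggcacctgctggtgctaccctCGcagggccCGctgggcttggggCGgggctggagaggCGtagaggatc
Cd22: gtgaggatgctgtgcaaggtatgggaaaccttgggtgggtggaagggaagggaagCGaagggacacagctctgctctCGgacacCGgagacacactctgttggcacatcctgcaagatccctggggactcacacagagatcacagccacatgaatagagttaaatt
Cd79a: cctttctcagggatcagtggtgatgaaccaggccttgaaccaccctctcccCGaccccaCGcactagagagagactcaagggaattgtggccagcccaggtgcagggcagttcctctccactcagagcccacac

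These stretches held 11 CpG in Cr2, 17 in Plcg2 and 6 in Pik3cd over 250 bases, 3 in Cd22 over 166 bases and 2 in Cd79a over 134 bases. Over the whole 300-base windows, RefSeq promoters had a median of 7 CpG (quartiles 3 and 20, 32851 windows). Of the 3 windows under a peak, that of Plcg2 held 21, that of Cr2 14 and that of Blnk 7. The 7 windows in wide intervals held between 2 and 31 CpG, with 31 in a window of Syk (chr13:52678556-52678855) and 26 in another window of Pik3cd, so the stretches shown from wide intervals are among those with fewer CpG. CpG number therefore did not separate the start sites under peaks from those in wide intervals.

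The peak at Cd79b, which encodes the signalling chain Ig-beta, was the narrowest of the 5 peaks at 5′ ends. It spanned chr11:106175853-106176873 (1021 bp, wider than 31.2% of all peaks) and reached from position -797 to 223 bp relative to the first 5′ end of the gene (ENSMUSG00000040592.5, chr11:106172655-106176076, minus strand). The second 5′ end, 233 bp into the gene, lay 10 bp beyond the edge of the peak. Its midpoint lay outside the gene, at -287 bp. The sequence was poor in CpG, with 0.49 per 100 bp, and only 0.257% of the 7384 peaks at coding 5′ ends had fewer. The GC content of 50.6% was close to the median of all peaks, 50.3%.

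At Cr2, the receptor for complement fragments on B cells, the peak spanned chr1:197001701-197003226 (1526 bp) and covered both annotated 5′ ends (gene ENSMUSG00000026616.8, chr1:196963005-197002909, minus strand). The midpoint lay 446 bp into the gene, in an intron. The GC content of 46.1% was among the lower values, as 5.19% of peaks at coding 5′ ends were lower. No other peak overlapped the 39.9 kb of the gene.

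Lyn, the kinase that starts the cascade and also phosphorylates inhibitory receptors, had a pair of peaks (gene ENSMUSG00000042228.8, chr4:3605262-3740269, plus strand). The first, chr4:3605009-3606758 (1750 bp), covered 3 of 4 annotated 5′ ends, which lie within 15 bp of each other. It also overlapped the lincRNA gene Gm17726 on the opposite strand, so that the peak cannot be assigned to Lyn alone. The other 5′ end, of a noncoding transcript 78342 bp into the gene, was 25.7 kb from the nearest peak. The second peak, chr4:3657134-3657921 (788 bp), lay in an intron about 52265 bp into the gene.

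Blnk, the adaptor that joins SYK to PLCG2, had the widest peak of the 9 genes (gene ENSMUSG00000061132.7, chr19:41003417-41069025, minus strand). This peak, chr19:41068159-41071653, was 3495 bp wide, and 95.9% of all peaks were narrower. It reached from -2628 to 866 bp relative to the start of the gene and covered both distinct 5′ ends. A second peak of 1270 bp (chr19:41064435-41065704) followed in an intron 3956 bp into the gene, separated by 2.45 kb. Upstream the next peak was 0.79 kb away, so that Blnk began within a run of 3 peaks.

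Plcg2, whose product cleaves membrane lipid to release calcium, had the peak with the highest GC content (gene ENSMUSG00000034330.9, chr8:120022191-120159040, plus strand). The peak spanned chr8:120021951-120023117 (1167 bp), from -240 to 926 bp relative to the only annotated 5′ end. Its GC content was 64.4%, above that of 95.8% of peaks at coding 5′ ends, and it held 6.77 CpG per 100 bp. A second peak of 1010 bp (chr8:120071373-120072382) lay in an intron 49686 bp into the gene. Thus 3 of the 5 genes outside wide intervals, Lyn, Blnk and Plcg2, had 2 peaks over the gene, against 10.7% of coding genes there with at least 2. These are also the 3 longest of the 9 apart from Syk, which was of about the same length as Blnk (65.6 kb).

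**Figure D2:**
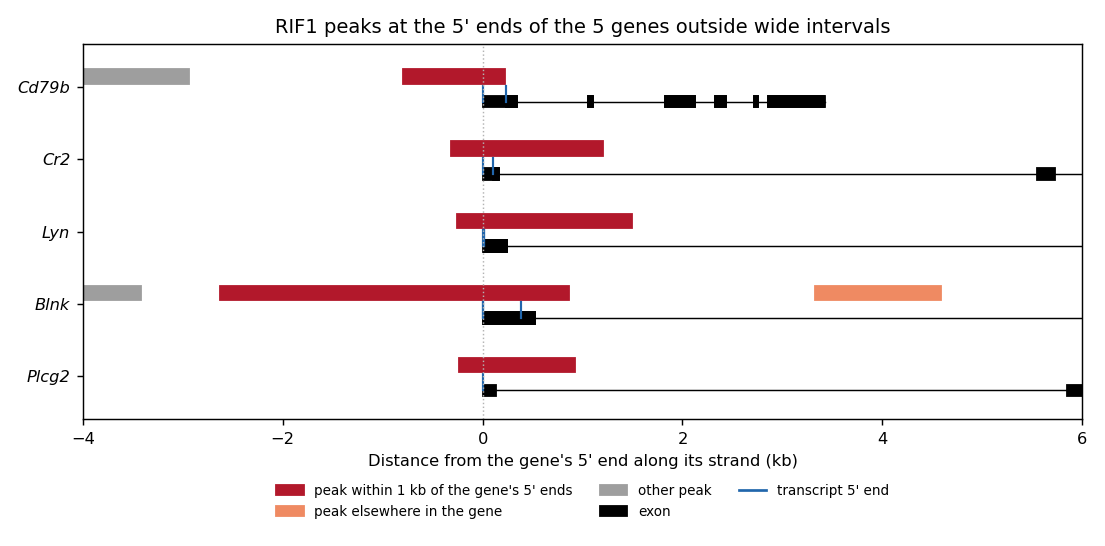
RIF1 peaks (coloured bars) at the 5′ ends of the 5 genes outside wide intervals, from 4 kb before to 6 kb after the gene's first 5′ end, with exons in black and transcript 5′ ends as blue lines. All 5 red peaks overlap the first 5′ end, and the peak of Blnk, at 3495 bp, reaches farthest upstream.

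The 5 peaks at 5′ ends had a median width of 1526 bp, against 1556 bp over peaks at coding 5′ ends. The 3 peaks inside Lyn, Blnk and Plcg2 were 788, 1270 and 1010 bp wide, against a median of 1194 bp over peaks away from coding 5′ ends. The GC content of the 8 peaks ran from 46.1 to 64.4%. The peaks at Lyn and Plcg2 lay above the median of peaks at coding 5′ ends, 54.7%, and those at Cd79b, Cr2 and Blnk below it.

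**Figure D3:**
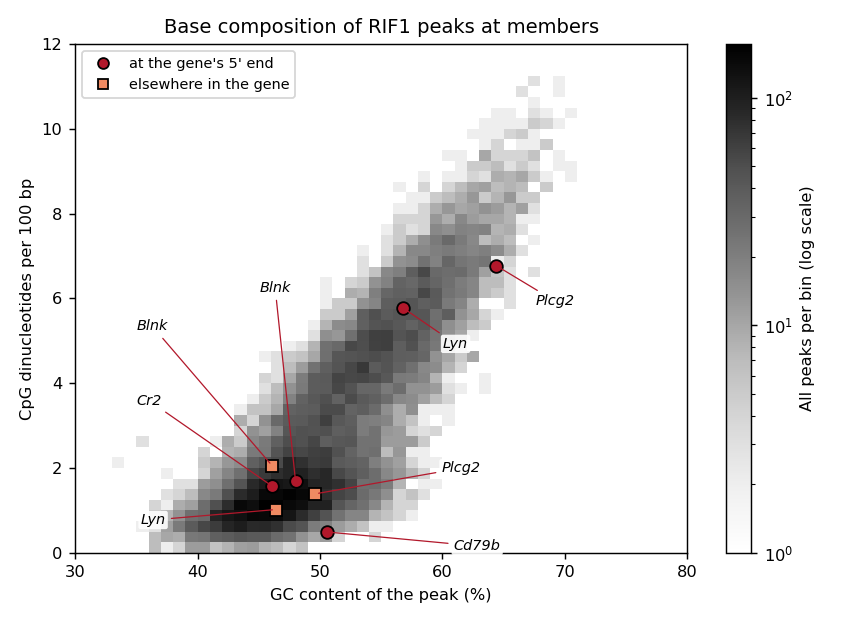
GC content (%) against CpG dinucleotides per 100 bp for all 16043 peaks (grey bins, number per bin on a log scale) and the 8 peaks at members (circles at 5′ ends, squares elsewhere in the gene). The 5′ peaks of Lyn and Plcg2 lie at 5.77 and 6.77 CpG per 100 bp, whereas those of Cd79b, Cr2 and Blnk lie between 0.49 and 1.69.

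As RIF1 can bind G-quadruplexes, the peaks were searched on both strands for 4 runs of at least 3 G separated by 1 to 7 bases. This pattern was found in 4 of 8 peaks, the 5′ peaks of Lyn, Blnk and Plcg2 and the intronic peak of Blnk, and not in those of Cd79b and Cr2. The share was 38.6% over all peaks and 54.8% over peaks at coding 5′ ends, so the 3 of 5 members were close to the background. In the promoter windows the pattern was found in 3 of 10, 1 of Cd22 and 2 of Pik3cd, all in wide intervals, and in none of the 3 windows under a peak, against 18.6% of all RefSeq promoter windows. Examples are shown 5′ to 3′ on the gene's strand, with the runs of G (or of C, where the other strand holds the G) in capitals, since they display the pattern at the start of Plcg2 and at both peaks of Blnk. None of these stretches overlaps an exon of a coding gene. They lie at chr8:120022410-120022469 (plus strand), chr19:41069750-41069814 and chr19:41064679-41064734 (minus strand).
Plcg2, 5′ peak: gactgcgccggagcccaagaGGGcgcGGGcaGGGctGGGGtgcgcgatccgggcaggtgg
Blnk, 5′ peak: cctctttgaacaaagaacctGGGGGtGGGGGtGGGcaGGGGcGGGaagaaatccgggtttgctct
Blnk, intron peak: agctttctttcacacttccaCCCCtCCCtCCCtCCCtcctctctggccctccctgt

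The 4 members in wide intervals differed in their surroundings. Cd79a (ENSMUSG00000003379.7, chr7:25682400-25687216), the partner chain of Cd79b, lay in an interval of 1.84 Mb (chr7:24858001-26694000) with 71 coding genes. Cd22 (ENSMUSG00000030577.6, chr7:31650421-31665361) lay on the same chromosome in an interval of 1.48 Mb (chr7:30540001-32022000) with 78 coding genes. The genes next to them, Rps19 and Arhgef1 at Cd79a and Ffar1 and Mag at Cd22, were in the same intervals. Wide intervals covered 37.2% of coding genes on chromosome 7, more than the 22.6% over all chromosomes.

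Syk (ENSMUSG00000021457.8, chr13:52678542-52744161), the kinase that docks on the CD79 chains, lay in the widest of these intervals, 2.42 Mb (chr13:50800001-53220000), the tenth of 289 by width. In contrast to those of chromosome 7 this interval was poor in genes, with 14 coding genes or 5.79 per Mb, against 38.7 and 52.6 per Mb in the intervals of Cd79a and Cd22. On chromosome 13, wide intervals covered 28.5% of coding genes. Pik3cd (ENSMUSG00000039936.10, chr4:149023277-149076680) lay in the shortest, 660 kb (chr4:149000001-149660000), with 10 coding genes, and on chromosome 4 the share was 26.4%. The 3′ end of Pik3cd was 23.3 kb from the edge of its interval, whereas the other 3 genes were at least 357 kb from an edge.

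The distance to the nearest peak separated the 4 genes further. It was 61.4 kb for Pik3cd, 728 kb for Syk, 1346 kb for Cd22 and 4616 kb for Cd79a, in each case downstream of the gene. The nearest peak to Pik3cd, chr4:148961230-148961843, overlapped 5′ ends of Clstn1. A single peak, chr7:30303086-30304541, was the nearest to both Cd22 and Cd79a. Among coding genes in wide intervals the median distance was 430 kb (quartiles 230 and 882 kb), and 21.1% were over 1 Mb from a peak. A peak within 200 kb of the gene was found for Pik3cd only, with 3, whereas Cd79a, Cd22 and Syk had 0, and 21% of coding genes in wide intervals had a peak at this distance. None of the 11 distinct 5′ ends of Pik3cd had a peak within 1 kb, and the closest of them lay 75550 bp from a peak.

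All 5 genes with a peak at a 5′ end had further peaks nearby. With Pik3cd, 6 of 9 members had a peak within 200 kb of the gene, against 69.3% of coding genes, which is no higher than the background. Cd79b had 15 peaks within 200 kb, Blnk 13, Lyn 12, Plcg2 10 and Cr2 5, and the median over coding genes outside wide intervals was 5 (quartiles 2 and 8). Of those genes, 97.0% had fewer than Cd79b, 93.3% fewer than Blnk, 90.4% fewer than Lyn, 81.2% fewer than Plcg2 and 45.9% fewer than Cr2. These counts include peaks at or in the gene itself. All 5 genes have a peak at a 5′ end, as do 43.4% of the coding genes they are ranked among, which can raise the ranks. Since the window grows with the gene, the density is also given, without a value over coding genes. It was 37.2 peaks per Mb around Cd79b, 27.9 around Blnk, 22.4 around Lyn, 18.6 around Plcg2 and 11.4 around Cr2, which is the same order. The window of Cr2 reaches the end of chromosome 1, where fewer bases can hold a peak.

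**Figure D4:**
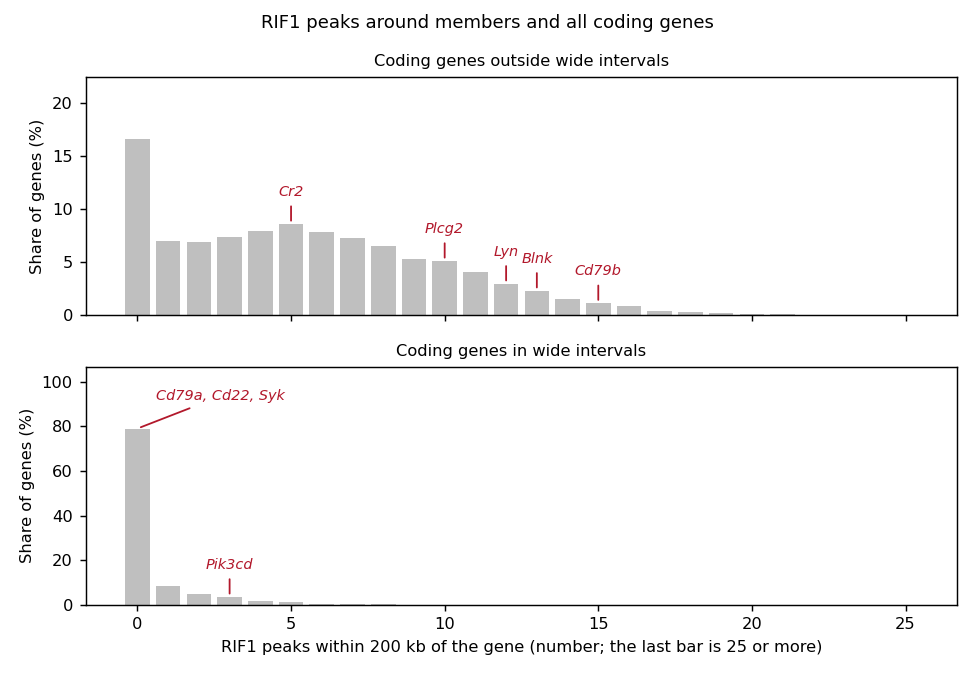
Share of coding genes (%, grey bars) by the number of RIF1 peaks within 200 kb, outside wide intervals (top) and in them (bottom), with the 9 members marked. Cd79b, at 15 peaks, lies highest among the members, Cr2, at 5, lies at the median, and Cd79a, Cd22 and Syk share the value 0.

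Some of these peaks lay at 5′ ends of other coding genes. Around Cd79b, 6 of 15 peaks lay at 5′ ends of other coding genes, among them Ddx42, Psmc5, Smarcd2, Limd2 and Icam2, and 4 peaks overlapped the neighbouring sodium channel gene Scn4a, whose 5′ end had none. The growth hormone gene Gh, on the other side of Cd79b at 9.48 kb, had neither. At Cr2, the related complement regulator genes Cr1l and Cd46 both had a peak at a 5′ end, and these made up 2 of its 5 peaks. Around Lyn, 4 of 12 peaks were at other coding 5′ ends, including Rps20, Mos and Tmem68. Around Blnk this held for 2 of 13, at Dntt and Ccnj, and 9 were in neither place nor in Blnk itself. Around Plcg2 it held for 2 of 10 peaks.

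Distance to a wide interval also varied among the 5 genes. It was 131 kb for Lyn, upstream of the gene and near the start of chromosome 4, and between 2403 and 3603 kb for Plcg2, Cd79b, Blnk and Cr2. Lyn was thus the only 1 of the 5 with a wide interval within 200 kb, against 7.91% of coding genes outside wide intervals.

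The other genes of the pathway were counted by role from a list of 46, of which 45 were matched and Ighd was not. Of these 45, 22 had a peak at a 5′ end (48.9%), 20 a peak over the gene (44.4%) and 18 lay in or overlapped a wide interval (40.0%). The shares over all coding genes were 33.9, 35.9 and 22.6%. The inositol trisphosphate receptor gene Itpr1 had both, with a peak at a 5′ end and a wide interval over the other end of its span. The phosphatase gene Inpp5d had a peak inside the gene only, and 5 had none of these, Cd81, Cd72, Btk, Lat2 and Nfatc3. The median length of the 45 genes was 63.0 kb, again above that of all coding genes.

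By role, counts are set beside the shares over all coding genes. These were 22.6% with a wide interval and 33.9% with a peak at a 5′ end. Of the inhibitory receptor genes, Fcgr2b, Siglecg, Cd5 and Pirb, which like Cd22 restrain the receptor, overlapped wide intervals (4 of 5). Siglecg and Pirb lie on chromosome 7, where wide intervals covered 37.2% of coding genes. Cd72, of the same role, had its nearest peak at 1.49 kb. The phosphatase gene Ptpn6, whose product is recruited by CD22, was in a wide interval too, whereas Ptprc had a peak at a 5′ end. Cd81, a coreceptor gene that acts with Cr2, had its nearest peak 0.53 kb from the gene. Of the antibody chains, the heavy chain constant gene Ighm lay in a wide interval and the light chain gene Igkc had a peak. Adaptors had a peak at a 5′ end in 4 of 6 (Pik3ap1, Dok3, Bank1 and Shb), and Grb2 was in a wide interval. Of the kinases, Blk and Fyn, relatives of Lyn, had such a peak, Csk and Map4k1 were in wide intervals, and Btk on the X chromosome had its nearest peak at 103 kb. The other PI3K subunit genes counted, Pik3r1 and Pik3cg, both had a peak at a 5′ end. Exchange factors (Vav2, Rasgrp1 and Sos1 with peaks, Vav1 and Rasgrp3 in wide intervals) were divided in a like manner. Calcium release genes had a peak at a 5′ end in 5 of 7, including Itpr2 and Stim1, and Itpr3 and Orai1 lay in wide intervals. In the NF-kappaB arm, Prkcb and Malt1 had peaks, and Bcl10, whose product forms a complex with MALT1, lay in a wide interval. Roles hold few genes each, and differences between them were not tested.

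For comparison, 12 genes of T cell receptor signalling were counted in the same way. Of these, 2 had a peak at a 5′ end (16.7%, against 33.9% of coding genes), the costimulator Cd28 and the adaptor Lcp2. A peak over the gene was found in 5 (41.7%, against 35.9% of coding genes). In a wide interval lay 4 (33.3%, against 22.6% of coding genes), among them Cd4, Lck and Lat. The median number of peaks within 200 kb was 7.5, against 5 over members and 3 over coding genes. Outside wide intervals, 2 of 8 had a peak at a 5′ end, whereas 5 of 5 members, 21 of 27 other pathway genes and 43.4% of coding genes did. The CD3 genes Cd3e, Cd3g and Cd3d, the counterparts of the CD79 genes, had no peak at a 5′ end. These genes lie close together (chr9:44777655-44817673), outside wide intervals, and each had 9 peaks within 200 kb. The median of 7.5 and the 2 of 8 therefore count the same surroundings more than once. Cd247, Zap70 and Cd3d had a peak inside the gene only. The T cell genes were shorter (median 22.2 kb), and the difference between the lists was not tested.

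**Figure D5:**
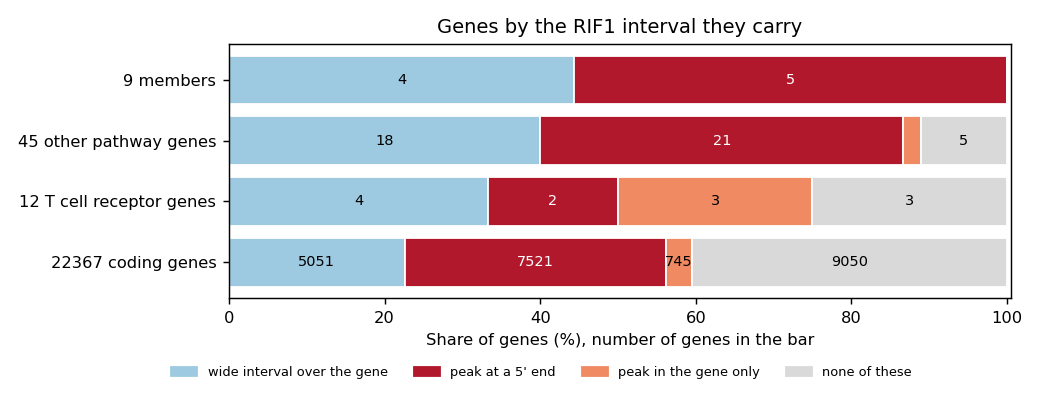
Share of genes (%) with a wide interval over the gene (blue), otherwise a peak at a 5′ end (red), otherwise a peak in the gene only (orange), or none of these (grey), with the number of genes printed in each bar. The 9 members take the first and second class only (4 and 5 genes), whereas 9050 of 22367 coding genes have none.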

How the data were processed

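Rif1FH and Rif1WT samples were assigned to groups by their titles. As the study's methods and the labels state, the authors trimmed reads with Trim Galore 0.6.4, aligned them to mm9 with Bowtie 1.0.0 keeping unique alignments, called narrow and broad peaks in each replicate with MACS2 2.2.6 and RADs with EDD, merged them with bedtools 2.27.1 and retained those called in both replicates. Unique alignment drops reads that match several places, and sites called in only 1 replicate are not listed. The deposited list gives positions only.

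Intervals under 50 kb were taken as narrow and others as wide, and genes came from GENCODE M1. Counts over the members, over each whole list and by role were set beside shares of all coding genes on chromosomes with intervals. No tests were made. The 9 members and the gene lists were chosen with earlier results of these data known. Members were described individually, and other pathway genes by role, some of which are counted but not reported here by name. Sequence was read from NCBIM37 and RefSeq. Overlap functions were tested on simulated data. Python 3.11.15, numpy 2.4.6, pysam 0.24.0 and samtools 1.23.1 were used. Alternatives varied the window, the overlap, the transcripts and the width of peaks.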

Additional observations from a re-analysis of the deposited data

How the results depend on the processing

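The 5 counts and medians over the members were recomputed under 26 alternatives, of which 20 stayed within 1.5 times the reported value. Restricting the list to peaks at or above the median width of 1365 bp left 3 members with a peak at a 5′ end and 3 with a peak over the gene (Cr2, Lyn and Blnk), since the peaks of Cd79b and Plcg2 were narrower, and the shares of coding genes fell to 21.7 and 23.7%. It also lowered the median number of peaks within 200 kb from 5 to 1 (coding genes, from 3 to 1) and raised the median distance to the nearest peak from 0 to 165688 bp (coding genes, from 26490.5 to 81210.5 bp), so that members were no longer above coding genes in number and were farther from a peak. With 100 kb on each side of the gene, the median number of peaks was 4 over members and 2 over coding genes. With 500 kb on each side it was 7 over members and 8 over coding genes, so members were not above coding genes at that distance. Counting narrow and wide intervals together gave 9 of 9 members at a 5′ end and 9 of 9 over the gene, by construction, against 56.1 and 58.1% of coding genes. Windows of 0.1 and 5 kb around 5′ ends, coding transcripts only, and merging of peaks under 1 kb apart each left the same 5 genes with a peak at a 5′ end. With 200 kb added on each side, 5 members met a wide interval, the fifth being Lyn, against 28.7% of coding genes. No paired analysis was possible because positions from both replicates were combined before deposit, although the groups share replicate numbers, and for the same reason replicates could not be left out. Depth is unknown, so weak binding at a gene with no listed interval cannot be assessed.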

Other observations

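The 250 bases before RefSeq start sites of 7 members were searched on both strands for sequences bound by factors that act at promoters, several of them in B cells, and the share of all 32851 promoter windows of 300 bases with each sequence is given as background. The palindrome bound by the B cell factor EBF1 (TCCC and GGGA with 2 bases of any kind between) was found once, before a start site of Cd22 (bases -49 to -40), and in 0.904% of all windows. The octamer ATGCAAAT, bound by OCT factors, was found once, before a start site of Blnk 314 bp into the gene (bases -130 to -123), and in 1.74% of all windows. All 250 bases before this Blnk start site lie in an annotated exon, so the octamer is downstream of the gene's first 5′ end. The sequence CCAAT was found before start sites of Blnk and Pik3cd and in 37.4% of all windows, while CAGCTG (16.3%), GAGGAAG (13.6%) and the NRF1 palindrome (GCGC on each side of AT, 0.971%) were found before none of the members. The Cd22 window lay in a wide interval and the Blnk window under a peak. Such matches are a description of letters and not of bound sites.

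Between the wide intervals that hold Cd79a and Cd22 lay 1 further wide interval, 1062 kb from that of Cd79a and 420 kb from that of Cd22, and it held Map4k1, which encodes a kinase of the same pathway.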
